A study of Mus musculus with 2 samples.

Results

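The non-clustered delta protocadherins are a small group of single-copy cadherin genes, each at its own locus. The 9 genes described here were taken by gene symbol, Pcdh1, Pcdh7, Pcdh8, Pcdh9, Pcdh10, Pcdh17, Pcdh18, Pcdh19 and Pcdh20, out of 55536 annotated genes. They were measured by total RNA-seq of hippocampus (labelled layer of hippocampus) from female B6CASTF1/J mice, 36 days of age, the first-generation hybrid of the C57BL/6J and CAST/EiJ strains. The study holds 1 group of 2 libraries, replicate 1 and replicate 2, each from 300 ng of RNA with ERCC spike-in controls (synthetic RNAs added in known amounts). There is no treatment, mutant or second tissue, so levels and forms of the genes are described and no condition is tested. The libraries carry separate biosamples and 1 shared donor identifier in the labels, and the spread between the libraries may be technical in part.

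Protocadherins are transmembrane proteins whose extracellular cadherin repeats bind the same protein on a neighbouring cell. The delta group is divided by its repeats and cytoplasmic motifs: the delta-1 genes Pcdh1, Pcdh7 and Pcdh9 carry a motif that binds protein phosphatase 1, and several delta-2 proteins (the delta-2 genes here are Pcdh8, Pcdh10, Pcdh17, Pcdh18 and Pcdh19) recruit the WAVE complex, which starts branched actin networks. Pcdh20 is usually placed outside both subgroups. In the hippocampus the family is known for synapse remodelling: Pcdh8 (arcadlin) is induced by neuronal activity, Pcdh10 acts in activity-dependent synapse elimination, and PCDH19 is the gene of an X-linked human epilepsy that affects mainly heterozygous females. In most of these genes a single large exon encodes the extracellular repeats, and short exons encode most of the cytoplasmic tail.

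Coding bases that differ between transcripts of Pcdh10, Pcdh8, Pcdh19, Pcdh9 and Pcdh7 are shown here because the shares of transcripts with and without them are among the main results. Positions are in mm10 and each sequence is written 5′ to 3′ on the gene's own strand, from the GENCODE M21 transcripts. Capitals mark a stop codon, or a GT at the start of a segment where the shorter form splices out. The 4 coding transcripts of Pcdh10 share 1 large exon and then end differently, at chr3:45432474-45432544, chr3:45419407-45419426, chr3:45399323-45399363 and chr3:45381884-45381943 on the plus strand.
Pcdh10-201: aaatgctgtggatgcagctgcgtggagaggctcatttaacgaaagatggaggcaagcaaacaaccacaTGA
Pcdh10-202: cgcggaaaaggatatgcTAG
Pcdh10-203: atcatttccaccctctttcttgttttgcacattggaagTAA
Pcdh10-204: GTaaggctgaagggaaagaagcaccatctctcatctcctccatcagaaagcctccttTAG

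The remaining segments lie inside coding regions, except for the alternative end of Pcdh7-201. The Pcdh8 segment is 291 bases (97 codons) at chr14:79768497-79768787 on the minus strand, the Pcdh19 exon 141 bases (47 codons) at chrX:133682092-133682232 on the minus strand, and the Pcdh9 exon 102 bases (34 codons) at chr14:93560476-93560577 on the minus strand. The Pcdh7 segment is 24 bases (8 codons) at chr5:57913349-57913372 and the end of Pcdh7-201 lies at chr5:57728114-57728149, both on the plus strand. All 4 internal segments are whole numbers of codons, so the reading frame continues past them. Of these bases 76.6% are G or C in the Pcdh8 segment and 40.2% in the Pcdh9 exon.
Pcdh8 segment: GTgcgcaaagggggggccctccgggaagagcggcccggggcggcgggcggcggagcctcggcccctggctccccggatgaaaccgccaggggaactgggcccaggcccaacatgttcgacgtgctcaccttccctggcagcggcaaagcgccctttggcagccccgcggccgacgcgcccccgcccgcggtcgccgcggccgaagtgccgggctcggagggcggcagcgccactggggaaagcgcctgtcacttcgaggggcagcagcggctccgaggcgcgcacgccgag
Pcdh19 exon: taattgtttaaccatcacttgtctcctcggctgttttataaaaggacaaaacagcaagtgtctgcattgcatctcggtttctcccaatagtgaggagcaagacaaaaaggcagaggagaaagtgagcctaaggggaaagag
Pcdh9 exon: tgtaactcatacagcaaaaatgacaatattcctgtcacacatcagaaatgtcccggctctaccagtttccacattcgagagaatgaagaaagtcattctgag
Pcdh7 segment: GTgaggcagagcatatggaaaatg
Pcdh7-201: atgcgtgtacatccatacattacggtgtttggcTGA

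The libraries held 32443497 and 30125183 expected counts in replicates 1 and 2, and the 9 genes took 48306 and 43135 of them. Each library was quantified in 2 ways by the authors. These are called here the first quantification (expected counts and TPM) and the second (estimated counts and TPM). TPM divides counts by transcript length and scales each library to the same total, so levels are compared between genes in TPM. Values are from the first quantification unless the second is named, and means are given ± SD over the 2 libraries. Neuronal markers of hippocampus were present in both libraries, with Camk2a at 1303 and 1180 TPM and the dentate granule neuron marker C1ql2 at 35.5 and 39.5 TPM. Markers of the choroid plexus, the tissue that secretes cerebrospinal fluid, were far lower in replicate 1 than in replicate 2: the summed TPM of 10 genes was 27.1 and 1303, all 7 whose counts averaged at least 100 differed by over 2-fold, and none was listed at 0. Those 7 were Ttr (20.8 and 1237 TPM), Kl, Sostdc1, Clic6, Slc4a5, Aqp1 and F5. The 6 meningeal fibroblast markers summed to 54.3 and 106 TPM, with the growth factor gene Igf2 over 2-fold apart, and the 6 oligodendrocyte markers summed to 1511 and 1151 TPM.

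All 9 members reached 1 TPM in each library, the level taken here as detection, which 57.6% of 22028 protein-coding genes did. Their levels spanned a wide range, with Pcdh1 highest and Pcdh18 lowest. Summed over the family they came to 417.9 TPM in replicate 1 and 395.1 TPM in replicate 2, a mean of 406.5 ± 16.2 TPM. The second quantification gave a sum of 672.0 ± 19.8 TPM. In that quantification small structural RNAs took 0.112% and 0.161% of all TPM, whereas in the first they took 41.7% and 43.1%, and the median ratio of first to second TPM was 0.585 over the 9 members and 0.584 over 12656 detected protein-coding genes. The median member had 32.6 ± 1.86 TPM, and the median detected protein-coding gene 14.7 ± 0.04 TPM. In the first quantification each member's gene-level counts were whole in both libraries (to within 0.005 of a count). That quantification therefore split no read between one of these genes and another gene. The second did not keep whole counts for every member, with Pcdh17 at 4677.66 and 4418.16 counts. Whole counts in the first quantification are not particular to these genes. Of 18 classical cadherins, 16 had them too.

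The delta-1 genes took the largest part of the family. Pcdh1, Pcdh7 and Pcdh9 together held 57.0% and 54.9% of the family's TPM, a mean of 55.9% ± 1.52, the delta-2 genes 29.7% ± 1.10 and Pcdh20 alone 14.4% ± 0.42. By expected counts, which favour long transcripts, the delta-1 share was 51.1% ± 0.91 and the delta-2 share 35.7% ± 0.77.

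Among the delta-1 genes, Pcdh1 (ENSMUSG00000051375.15, chr18:38185914-38212053, minus strand), an adhesion protein also known from airway epithelium, had 153.3 TPM on 15526 counts in replicate 1 and 139.1 TPM on 13361 counts in replicate 2. It was the highest member in both libraries, took 35.9% ± 1.04 of the family's TPM and stood at the 96.5 percentile of detected protein-coding genes. Pcdh9 (ENSMUSG00000055421.8, chr14:93013410-93890679, minus strand), which spans 877270 bases, the widest locus of the 9, had 63.3 and 53.7 TPM on 6161 and 5213 counts. Pcdh7 (ENSMUSG00000029108.14, chr5:57717967-58133230, plus strand), whose cytoplasmic tail binds protein phosphatase 1 and the phosphatase inhibitor SET, was the lowest of the delta-1 genes in both libraries, with 21.7 and 23.9 TPM on 3306 and 3188 counts.

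The delta-2 genes lay closer together, apart from Pcdh18. Pcdh10 (ENSMUSG00000049100.15, chr3:45378398-45435623, plus strand), a target of the MEF2 transcription factors that carries ubiquitinated PSD-95 to the proteasome, had 34.9 and 39.9 TPM on 4453 and 3980 counts. Its TPM was lower in replicate 1 than in replicate 2 although its count was higher there, which is taken up with its transcripts. Pcdh19 (ENSMUSG00000051323.16, chrX:133582860-133688987, minus strand), a partner of N-cadherin, had 33.6 and 31.3 TPM on 5415 and 5011 counts.

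Pcdh8 (ENSMUSG00000036422.10, chr14:79766775-79771312, minus strand), which on neuronal activity draws N-cadherin from the synapse, had 33.9 and 31.0 TPM on 2730 and 2527 counts, overlapping the values of Pcdh19. Pcdh17 (ENSMUSG00000035566.7, chr14:84443563-84539002, plus strand), which brings the WAVE complex to cell contacts, had 16.6 and 16.4 TPM on 4246 and 3960 counts. Pcdh18 (ENSMUSG00000037892.13, chr3:49743296-49757325, minus strand), which binds the reelin adaptor Dab1, had 1.91 and 1.98 TPM on 159 and 173 counts, at the 5.93 percentile of detected protein-coding genes. It was the only member under 5 TPM, and the 95% Poisson interval of its count, which covers counting error only, ran 135 to 186 in replicate 1 and 148 to 201 in replicate 2.

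Pcdh20 (ENSMUSG00000050505.7, chr14:88464743-88471396, minus strand) had 58.8 and 57.9 TPM on 6310 and 5722 counts. Its SD between libraries, 0.60 TPM, was the smallest of any member above 30 TPM in the first quantification. By other measures it was not the smallest. In the second quantification the SD was 0.98 TPM, against 0.18 for Pcdh19 and 0.45 for Pcdh8. By the scaled counts described below, the fold between libraries was 1.05 for Pcdh20 and 1.03 for both of those. The values of Pcdh20 lay inside the range of Pcdh9 in the first quantification. In descending order of mean TPM the family ran Pcdh1, Pcdh9, Pcdh20, Pcdh10, Pcdh19, Pcdh8, Pcdh7, Pcdh17 and Pcdh18, and of the 8 neighbouring pairs only Pcdh9 with Pcdh20 and Pcdh19 with Pcdh8 overlapped between their libraries. With 2 libraries, a lack of overlap is a description of these values and no test.

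The second quantification kept this order except for Pcdh19, which held rank 5 in the first and rank 7 in the second. Its mean was 35.4 ± 0.18 TPM there, below Pcdh8 at 45.5 ± 0.45 and Pcdh7 at 38.9 ± 1.27 TPM, and no neighbouring pair overlapped. The ratio of first to second TPM was 0.916 for Pcdh19 and 0.476 for Pcdh10, the highest and lowest of the 9. By counts the quantifications lay closer, with ratios of first to second between 0.902 for Pcdh17 and 0.977 for Pcdh9.

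**Figure D1:**
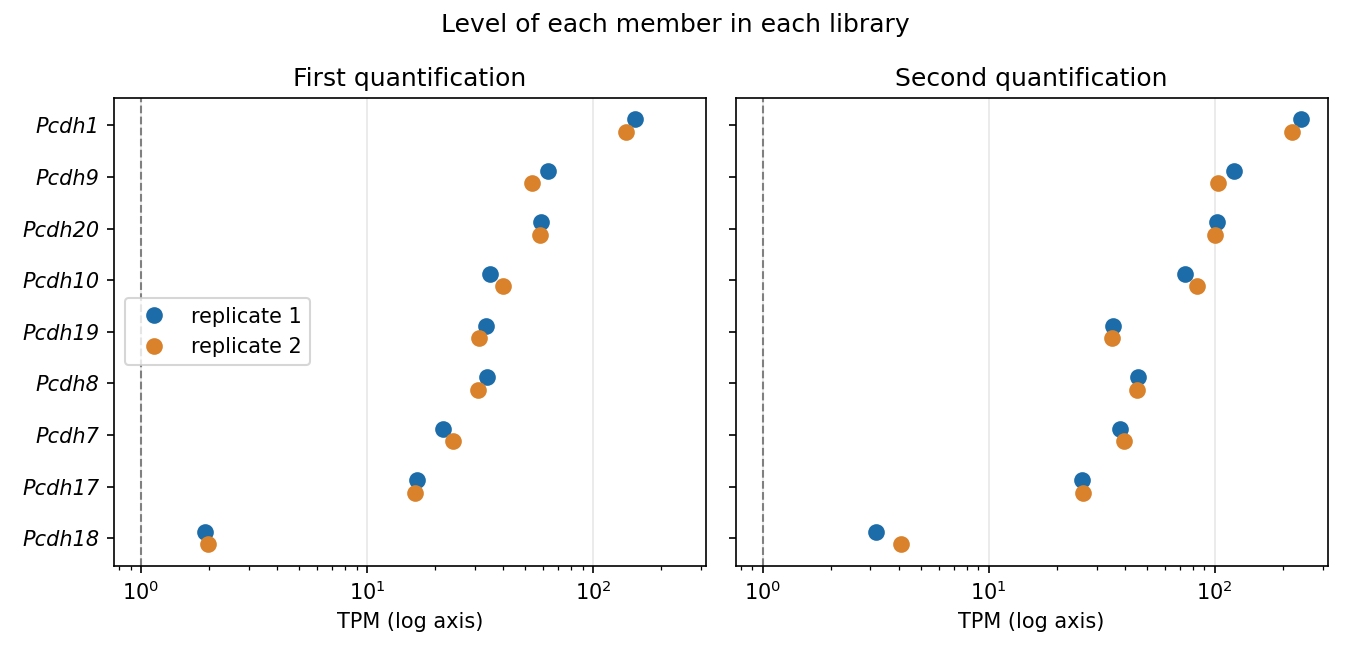
TPM of the 9 members (log axis) in replicate 1 and replicate 2, with the first quantification on the left and the second on the right; the dashed line is 1 TPM. Pcdh1 is highest at 153.3 and 139.1 TPM and Pcdh18 lowest at 1.91 and 1.98 TPM in the first quantification, and Pcdh19 sits lower among its neighbours in the second.

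Between the libraries the members differed little. On counts scaled by TMM (trimmed mean of M values, a scaling that centres most genes), the fold of replicate 1 over replicate 2 ran from 0.873 for Pcdh18 to 1.12 for Pcdh9. None of the 9 was over 25% higher in one library than in the other, where 6.24% of the 12651 genes averaging at least 100 counts were, and none was over 2-fold apart, where 0.466% were. The median size of the log2 ratio was 0.07 over the members and 0.09 over those genes. With 1 library on each side this has no replicate check and no p-value.

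Under TMM, 4 members differed between the libraries by more than counting error, a measure that leaves out the spread between replicates. The 95% interval of the fold, an exact binomial interval that covers counting error only, excluded 1 for Pcdh1 (1.10, 1.08 to 1.13), Pcdh9 (1.12, 1.08 to 1.17), Pcdh20 (1.05, 1.01 to 1.09) and Pcdh10 (1.06, 1.02 to 1.11), all higher in replicate 1. It included 1 for Pcdh19 (1.03, 0.988 to 1.07), Pcdh8 (1.03, 0.972 to 1.08), Pcdh17 (1.02, 0.975 to 1.06), Pcdh7 (0.985, 0.938 to 1.03) and Pcdh18 (0.873, 0.699 to 1.09). Such an interval narrows as counts rise, and the share of all genes compared whose interval excluded 1 is not given here, under any scaling. For 7 of the 9 the log2 ratio was above 0, and it was for 55.5% of all genes compared.

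The direction and these counts depended on the scaling. With the intervals moved to other scalings, a choice made after the values were seen, 1 was excluded for the same 4 members under DESeq2 size factors, for Pcdh1 and Pcdh9 alone under total-count scaling, and for all 9 under spike-in scaling, there on the side of replicate 2. Scaling to the spike-in controls lowered every log2 ratio by 0.26, which put the median of all genes compared at -0.25 and all 9 members below 0, and Pcdh18 was then 1 member over 25% higher in replicate 2 than in replicate 1 (log2 ratio -0.46), where 28.2% of genes passed that size. Marker lists also differed between the libraries. Under TMM the median log2 ratio was -4.28 for choroid plexus, -0.68 for meningeal and -0.14 for dentate granule neuron markers (0 of 5 compared were higher in replicate 1). It was -0.14 for striatum, -0.13 for mural, -0.015 for thalamus, -0.005 for astrocyte and -0.0009 for endothelial markers. The median was 0.35 for oligodendrocyte markers and 0.32 for CA3 pyramidal neuron markers (4 of 4 compared were higher in replicate 1). Smaller medians above 0 were those of excitatory neuron (0.14), cerebral cortex (0.14), CA1 (0.13), interneuron (0.10), oligodendrocyte precursor (0.09) and microglia (0.05) markers. Lists of many cell types therefore shared the sign of any member. Under spike-in scaling the oligodendrocyte and CA3 medians were 0.09 and 0.05, where all 9 members were below 0. The part of these cell types in the members' ratios was not tested. In tissue RNA, fewer cells of a type and less RNA per cell cannot be told apart.

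**Figure D2:**
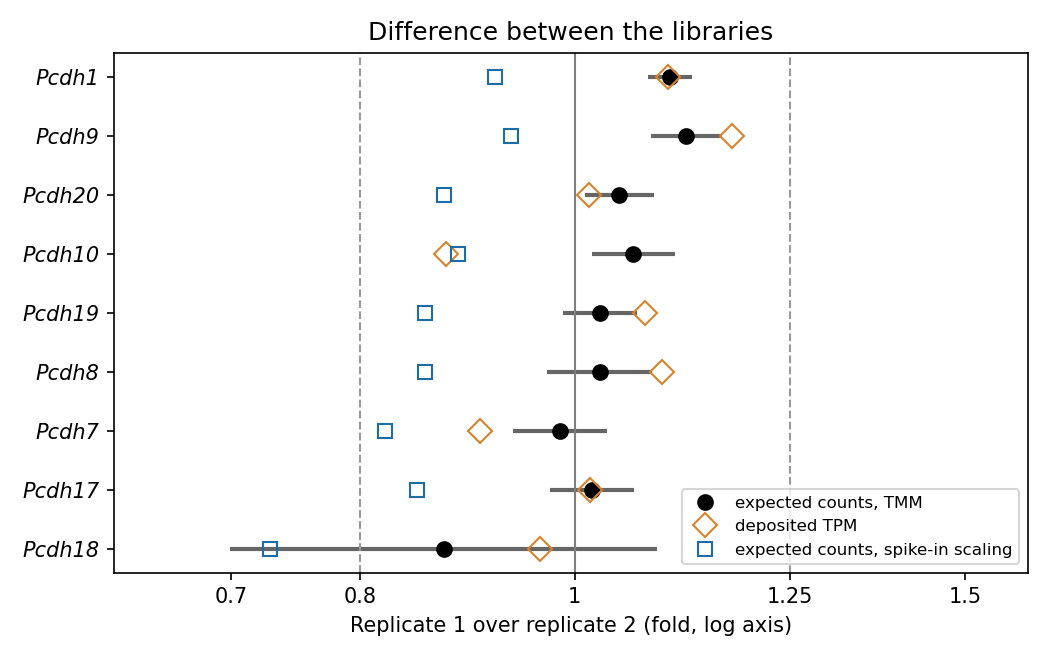
Fold of replicate 1 over replicate 2 for each member (log axis): black points are TMM-scaled expected counts with 95% counting intervals, open diamonds the ratio of deposited TPM, open squares expected counts scaled to the spike-in controls. Dashed lines mark a level 25% higher in one library or the other; all TMM folds lie between 0.873 and 1.12, and for Pcdh10 the TPM ratio lies on the other side of 1.

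The annotation lists 44 transcripts for the 9 genes, and the short ones weigh more in TPM than in counts, since few reads on a short transcript give a large TPM. Transcripts under 1000 bases took 28.0% ± 10.1 of Pcdh10's TPM on 3.14% ± 1.53 of its counts, 29.0% ± 2.27 of Pcdh19's TPM on 0.990% ± 0.107 of its counts, 29.1% ± 5.47 of Pcdh18's TPM and 18.5% ± 0.30 of Pcdh9's. Pcdh17 and Pcdh20 have no annotated transcript that short. Counting transcripts of 1000 bases or more alone, a choice made after the values were seen, the family summed to 365.6 ± 18.04 TPM.

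For Pcdh10 the short transcript set the direction of the TPM difference. The 634-base Pcdh10-205, a transcript without a coding region and without a base of its own that no other Pcdh10 transcript shares, was given 91.7 counts in replicate 1, worth 7.28 TPM, and 168 counts in replicate 2, worth 14.03 TPM. The log2 ratio of the gene's TPM was -0.19, against 0.09 by counts, and over transcripts of 1000 bases or more Pcdh10 had 27.6 TPM in replicate 1 and 25.9 TPM in replicate 2. In the second quantification Pcdh10-205 took 50.01% ± 5.86 of the gene's TPM.

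For Pcdh19 the short transcript separated the quantifications. Pcdh19-204, a 335-base transcript annotated as subject to nonsense-mediated decay, again with no base of its own, had 9.95 and 8.20 TPM by the first quantification and was listed at 0 in the second. Over transcripts of 1000 bases or more Pcdh19 had 23.3 and 22.7 TPM by the first quantification and 35.5 and 35.3 TPM by the second. Pcdh8-202 likewise took 8.70% ± 4.22 of Pcdh8's TPM in the first and was listed at 0 in the second.

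**Figure D3:**
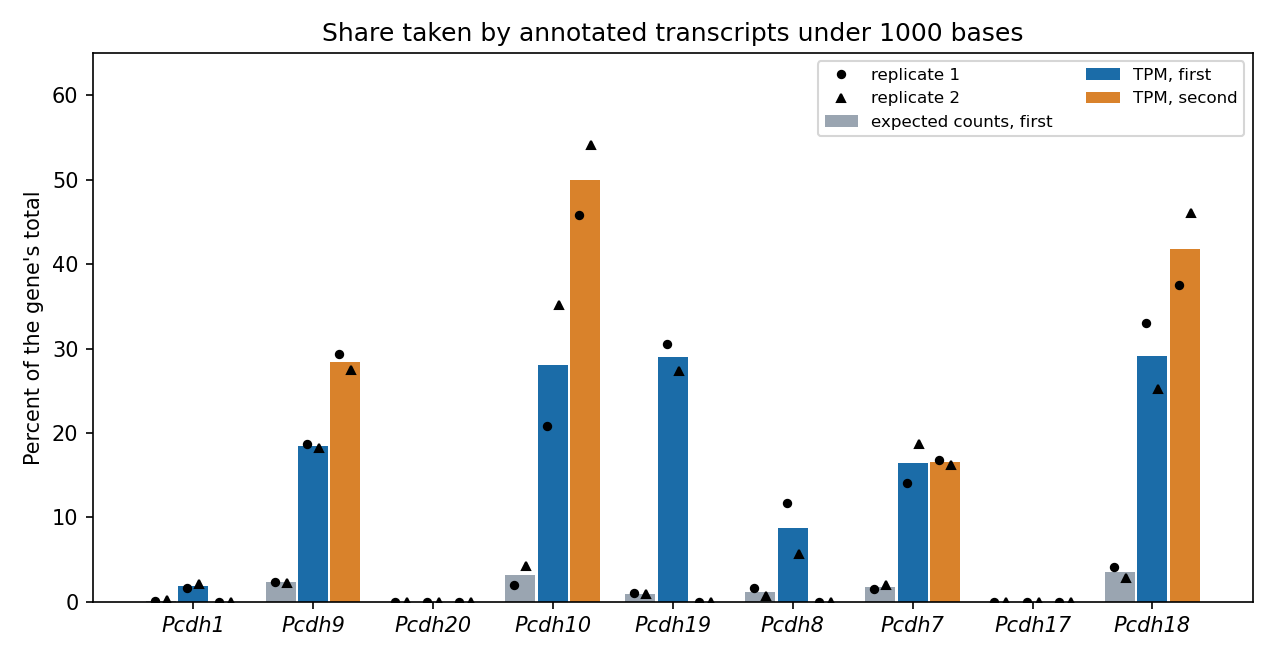
Percent of each gene's expected counts and of its TPM (first and second quantification) that annotated transcripts under 1000 bases took; bars are means over the 2 libraries, circles replicate 1 and triangles replicate 2. Pcdh10 stands at 28.0% of TPM on 3.14% of counts in the first and at 50.01% of TPM in the second, and Pcdh19 at 29.0% of first TPM with 0 in the second.

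The transcript of highest mean TPM was the same in both quantifications for 7 of the 9 genes, and the transcript of highest count for all 9. The same shares over all genes are not given here. The exceptions in TPM were Pcdh10 (Pcdh10-202 in the first and the short Pcdh10-205 in the second) and Pcdh20. The libraries also differed within a quantification. In the first, Pcdh10-205 led in replicate 2 with 35.2% against 26.5% for Pcdh10-202. In replicate 1 of the second, Pcdh20-201 led Pcdh20-202 with 51.1% against 48.9%, and Pcdh9-205 led Pcdh9-204 with 29.7% against 27.9%. Both Pcdh20 transcripts code for 952 codons and differ outside the coding region. Pcdh20-201, with 2261 bases after its stop codon, took 69.2% and 60.9% of the gene's TPM in the first quantification, and Pcdh20-202, with 147, took the rest. In the second their shares were 49.0% ± 2.91 and 51.0% ± 2.91.

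Pcdh1 was divided between a transcript with the large cadherin exon and one without it. Pcdh1-204, which holds the large exon and is annotated without its start codon, took 41.7% and 39.9% of Pcdh1's TPM, and Pcdh1-203 took 37.4% and 37.5%. Pcdh1-203 skips the large exon, codes for 360 codons against 1038 in Pcdh1-201 and Pcdh1-202, and has 4042 bases after its stop codon and 3098 bases that no other Pcdh1 transcript shares. It held 46.4% ± 0.18 of Pcdh1's counts, and 37.8% ± 0.27 of its TPM in the second quantification. Nearly all of its unshared bases lie outside the coding region, so its share describes reads on that long end as well as the exon skip. Among the 3 transcripts with the large exon, Pcdh1-204, which alone of them continues into 2 later exons, held 67.3% ± 1.74 by the first quantification and 70.4% ± 1.82 by the second. Pcdh1-202 and Pcdh1-201 divided the remainder differently, with 15.6% ± 0.64 and 4.23% ± 0.28 of the gene's TPM in the first and 2.06% ± 2.91 and 16.3% ± 4.12 in the second.

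The activity-regulated Pcdh8 was present mostly with its 97-codon segment. Pcdh8-201, which keeps the segment printed above, had 18.6 TPM and Pcdh8-204, which splices at its first bases, 10.4 TPM in replicate 1, and 20.7 and 7.88 TPM in replicate 2. The share with the segment was therefore 64.0% in replicate 1 and 72.4% in replicate 2, a mean of 68.2% ± 5.89. The second quantification gave 68.6% and 78.0%, again lower in replicate 1.

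Of the Pcdh19 transcripts compared, the one with the 47-codon exon held most of the TPM. Pcdh19-202, with the exon, had 17.98 and 17.5 TPM and Pcdh19-203, without it, 5.36 and 5.18 TPM. The share with the exon was 77.0% and 77.2% by the first quantification and 70.7% and 74.0% by the second. The ranges of the quantifications did not overlap. These transcripts also differ by 1 codon at another exon border. Pcdh19-202 has 10289 bases, of which 1738 are in no other Pcdh19 transcript. Pcdh19-203 has 8407 bases and 0 of its own. The share with the exon therefore also describes reads on those 1738 bases.

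Pcdh9 was present mostly without its 34-codon exon. The transcripts compared that hold the exon, Pcdh9-201, Pcdh9-207 and Pcdh9-208, summed to 3.71 and 2.03 TPM, and those without it, chiefly Pcdh9-204, to 32.1 and 31.9 TPM. The share with the exon was 8.18% ± 3.10 by the first quantification and 17.9% ± 0.93 by the second, and the ranges did not overlap. Pcdh9-205, which is annotated only in part and ends inside the large exon, took 21.7% ± 4.36 of the gene's TPM, the 656-base retained-intron transcript Pcdh9-203 16.9% ± 0.04, and neither entered this share. The 354-base Pcdh9-206, annotated only in part, also holds the exon and did not enter the share either, with 1.18 and 0.74 TPM. Pcdh9-202, without the exon, took 12.4% ± 1.46, and Pcdh9-201, with it, was listed at 0 in the first quantification and took 6.63% ± 1.12 in the second.

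Of the Pcdh7 transcripts compared, the one with the 8 codons printed above held most of the TPM. Pcdh7-203, with them, had 13.6 and 13.1 TPM and Pcdh7-202, which splices at their first bases, 3.72 and 3.95 TPM, a share of 77.7% ± 1.20 with the segment, against 69.2% ± 3.31 in the second quantification. Pcdh7-202 is annotated with no bases after its stop codon, and Pcdh7-203 has 3879. In Pcdh7-203, 3486 bases are in no other Pcdh7 transcript, against 0 in Pcdh7-202. The share with the segment therefore also describes reads on those bases. The truncated Pcdh7-201, which ends 11 codons into its last exon and lacks the later coding exons of the long forms, had 1.17 and 1.78 TPM, 7.90% ± 2.21 of these 3 transcripts. The short coding transcripts Pcdh7-204 and Pcdh7-207 took 8.33% ± 0.82 and 8.07% ± 4.16 of the gene's TPM.

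Among the annotated coding transcripts of Pcdh10, no single end was dominant by TPM. Pcdh10-202, which adds 5 whole codons after the fourth exon, held 41.7% ± 1.19 of the TPM of the 4 coding transcripts, and Pcdh10-204, which reads on past the large exon through the GT that the others splice at and stops 19 codons later, 33.9% ± 3.37. Pcdh10-201 held 18.5% ± 2.74 and Pcdh10-203 6.02% ± 0.57. Pcdh10-204 therefore lacks the tail that the exons after the large one encode in the other 3. It is annotated as 1 exon, with 1018 bases that no other Pcdh10 transcript shares. Its share therefore also describes reads on those bases, and whether unspliced Pcdh10 RNA adds to them was not tested. The second quantification gave 40.9%, 33.7%, 19.1% and 6.34% for Pcdh10-202, Pcdh10-204, Pcdh10-201 and Pcdh10-203, each within the range of the first.

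**Figure D4:**
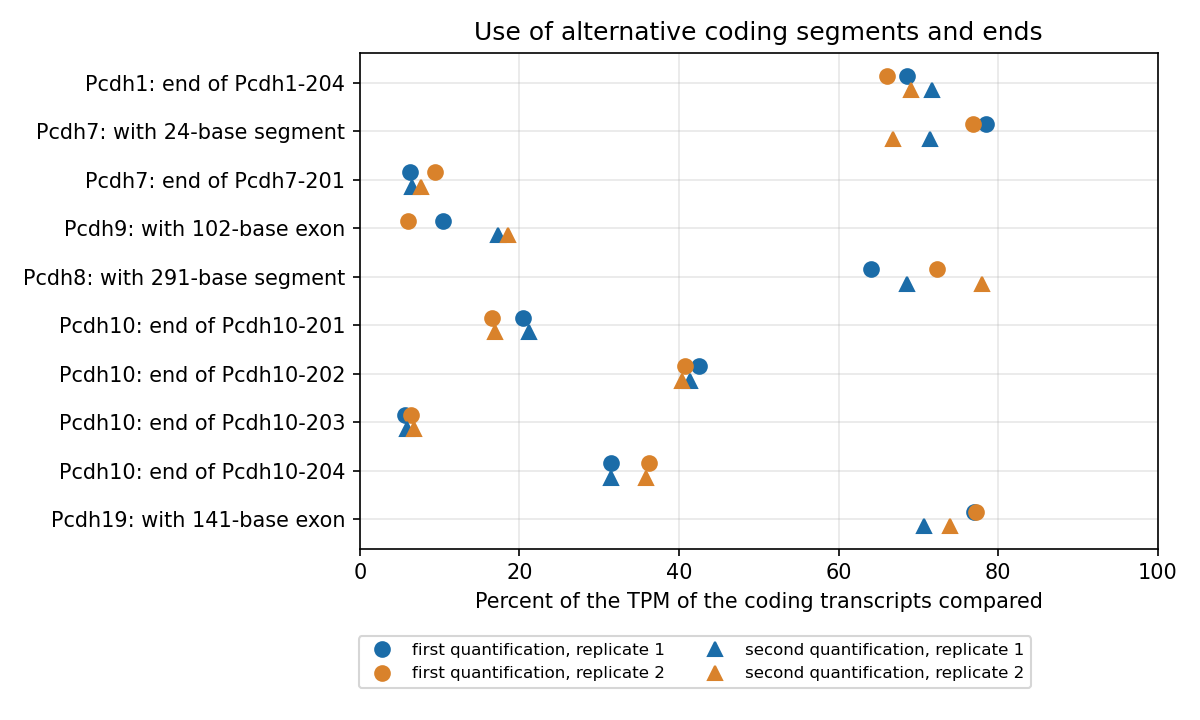
Percent of the TPM of the coding transcripts compared that held each alternative segment or end, by library (colour) and quantification (circles first, triangles second). The Pcdh10 ends hardly differ between quantifications, at 41.7% and 40.9% for Pcdh10-202, while the Pcdh9 exon stands at 8.18% and 17.9%.

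One coding transcript held most of the TPM of Pcdh17 and Pcdh18, by a narrower margin for Pcdh18. Pcdh17-201 took 94.5% ± 0.37 of the gene's TPM, and the retained-intron transcript Pcdh17-202 5.49% ± 0.37. Pcdh18-201 took 70.9% ± 5.47 of Pcdh18's TPM and 96.5% ± 0.91 of its counts, the rest being the short Pcdh18-203 on 6.64 and 4.99 counts. In the second quantification Pcdh18-201 took 52.2% ± 2.45 of the TPM and Pcdh18-203 30.7% ± 6.70. Pcdh18-205 took 11.1% ± 0.65 there, and Pcdh18-202 12.02% in replicate 1 and 0 in replicate 2; both were listed at 0 in the first.

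The leading transcripts, by mean TPM in the first quantification, shared the design that the family is known for. They held 952 to 1255 codons (median 1134), and a single exon held 62.5% to 95.4% of the coding bases (median 81.8%), lowest in Pcdh19-202 and highest in Pcdh20-201. Other rankings give other leaders. By counts Pcdh1 was led in both quantifications by Pcdh1-203, with 360 codons and without the large cadherin exon. By TPM in the second quantification Pcdh10 was led by Pcdh10-205, which has no coding region. Pcdh8, Pcdh17, Pcdh20 and Pcdh9 lie in that order within 14.1 Mb of chromosome 14 (chr14:79766775-93890679), in which the annotation has only 3 other protein-coding genes, 2 of them detected. The mean levels of these 4 ran from 16.5 TPM for Pcdh17 to 58.5 TPM for Pcdh9.

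RefSeq promoter windows (GRCm38.p6, windows of 300 bases, mostly before the start) were matched for 8 of the 9 genes, all but Pcdh1, with 2 windows for Pcdh9. Their median share of G and C was 62.3% and their median number of CG pairs 18, against 52.7% and 7 over 32851 windows. Pcdh20 stood at the low end with 43.7% and 4 CG pairs, and Pcdh8 had 54.3% and 14. The letters TATAAA were found on either strand only in the Pcdh8 window, and in 13.6% of all windows. The GC box GGGCGG was in 4 of the 9 windows (35.7% of all) and the cAMP response element TGACGTCA in none (1.79% of all). A match or its absence describes these letters in these windows only.

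Several loci overlap other annotated genes, and whether counting used strand is not given in the sources used here. Counts of the members and of the neighbours named here were whole in the first quantification, so no read was split between them. A read from an antisense gene may still have been counted whole for a member. The largest such neighbours were 4932441J04Rik at the Pcdh7 start, with 108 and 102 counts, and 9630013A20Rik within Pcdh17, with 80 and 74 counts. On the same strand, C230086J09Rik within Pcdh9 had 147 and 139 counts. Each was under 3% of the member's own count except 4932441J04Rik, at 3.27% and 3.20%. Many smaller same-strand genes also lie within Pcdh7, and their sum was not taken. The largest was Gm42635, with 39 and 52 counts, 1.18% and 1.63% of Pcdh7's own.

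The listed partners of the family were all detected, where 57.6% of all protein-coding genes were. Of the WAVE complex 11 of 11 genes were detected, led by its subunits Nckap1 (229 and 208 TPM), Cyfip2 (200.2 and 178 TPM) and Wasf1 (156 and 147 TPM), and the list's median was 85.0 ± 8.77 TPM. The lowest of the 11 averaged 2.61 TPM. None of the 11 was over 2-fold apart between the libraries, where only 0.466% of all genes compared were, so this sets the list apart from few genes. The 3 catalytic subunits of protein phosphatase 1 were all detected, Ppp1cb at 185 and 167 TPM, Ppp1ca at 106 and 104 TPM and Ppp1cc at 89.3 and 83.4 TPM.

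Of the genes through which Pcdh8 acts on N-cadherin, all 4 listed were detected: the kinase gene Taok2 had 60.2 and 63.1 TPM, Cdh2, which encodes N-cadherin, 46.7 and 43.0 TPM, and Mapk14, the gene of p38, 30.7 and 33.4 TPM. All 6 genes of the Pcdh10 pathway were detected, led by Dlg4, the gene of PSD-95, at 355 and 339 TPM, with Mef2d at 76.6 and 75.7 TPM and Mef2a at 58.3 and 54.6 TPM. Of the Pcdh19 partners, the GABA-A receptor subunit gene Gabra2 had 62.0 and 58.9 TPM, and Nono, a nuclear partner of the Pcdh19 tail, 53.8 and 50.8 TPM.

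Set beside related families, the 9 genes summed to more TPM than the 58 clustered protocadherins, which came to 309.5 ± 0.49 TPM with a median gene at 3.07 ± 0.04 TPM. Of those 58 genes 56 were detected and only 1 had whole counts in both libraries, so the counts of the others include fractions of reads in 1 library or both. The 18 classical cadherins summed to 192.1 ± 7.69 TPM with 15 detected, led by Cdh2, Cdh8 (34.5 and 33.0 TPM) and Cdh11 (34.4 and 30.8 TPM). Of 4 other non-clustered genes, Pcdh15, a hair cell gene, had 7.66 and 7.31 TPM, the photoreceptor cadherin gene Cdhr1 3.41 and 4.70 TPM and Pcdh11x, the remaining delta-1 gene, 2.81 and 2.88 TPM, while Pcdh12 was under 1 TPM. Pcdh11x therefore lay far below the 3 delta-1 genes described here, and near Pcdh18. In the second quantification the order of the families was the same, at 672.0, 461.7 and 338.2 TPM.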

How the data were processed

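Total RNA of 2 hippocampus libraries of 1 group was analysed from the authors' deposited tables, which per the file headers and accompanying notes use mm10 and GENCODE M21. The first quantification holds expected counts, TPM, the percent of a gene's TPM per transcript and interval bounds of TPM (a signal whose level is not stated), all as the authors deposited them; the second holds estimated counts and TPM. Software, versions and strand setting: not given in the sources used here. Reads of CAST/EiJ alleles were quantified against the C57BL/6J-based reference, and the effect was not tested.

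TPM of the second quantification was summed over a gene's transcripts (86 genes had none there). Libraries were compared by TMM scaling of expected counts (edgeR 4.0.16, prior count 0.5, mean count of 100 or more); with 1 group no test was run. Alternatives were DESeq2 1.42.0 size factors, total and spike-in scaling, TPM ratios, other minimums and the second quantification. Intervals (Poisson, binomial, 95%) used scipy 1.17.1. Entries that name no gene held under 5 counts per library. Transcript shares within a gene used the deposited transcript TPM.

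Named were all 9 members, transcripts with 5% or more of a member's TPM in either quantification, the 3 genes of highest mean TPM in a list of partners or relatives, and list genes over 2-fold apart. The values of 1 listed gene are not reported here. From the marker lists only genes that check the tissue or are over 2-fold apart are named. The members and lists were chosen with earlier results of these data known.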

Additional observations from a re-analysis of the deposited data

How the results depend on the processing

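No paired analysis was possible because the study has 1 group of 2 libraries. The family's summed TPM depended most on the denominator: it was 406.5 in the first quantification, 672.0 in the second, 941.4 when TPM was rescaled over protein-coding genes alone and 365.6 over transcripts of 1000 bases or more, a setting chosen after seeing the data. Leaving out each library gave 395.1 to 417.9. The delta-1 share was 51.1% by expected counts in place of 55.9% by TPM, and 54.9% to 57.0% with each library left out. The count of members over 25% higher in one library was 0 under TMM and 1 under spike-in scaling, and 0 under the other 8 alternatives run. The count over 2-fold apart was 0 under all 9. All 9 members were detected in every setting but a 5 TPM minimum, which left 8. The leading transcript was the same in both quantifications for 7 genes, for 7 to 8 with each library left out and for 9 by counts. The levels of all 9 members moved by more than the SD between libraries under the second quantification and under TPM over protein-coding genes, and those of 6 over transcripts of 1000 bases or more. Of the members' log2 ratios under other scalings and settings, 41 stayed within the 95% counting interval of the TMM value and 13 did not. The count of members whose counting interval of the fold excluded 1 was 4 under TMM, 4 under DESeq2 size factors, 2 under total-count and 9 under spike-in scaling. The share of all genes is not given here for these counts or for the leading transcripts. With 2 libraries an SD has little precision, and Pcdh18, at under 200 counts per library, is the member that depth limits most.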
